A study of Mus musculus with 230 samples.

Results

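The genes described here encode the proteins of the cytosolic ribosome in sensory neurons of the mouse dorsal root ganglion (DRG). They were chosen by name alone: rows named Rpl or Rps with a number, and Rpsa, Rplp0, Rplp1 and Rplp2, without pseudogene names (-ps) and without the Rps6 kinases. This gave 90 of the 53278 genes in the count table. By name, 31 encode proteins of the small (40S) subunit, 43 of the large (60S) subunit and 3 of the P stalk, and 13 are paralogs or further copies of such genes. Of the 90, 84 passed the filter on low counts, and the 6 that did not (Rpl3l, Rpl10l, Rpl32l, Rpl39l, Rps3a3 and Rps12l1) all belong to the group of copies.

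The mice were crosses of the inbred strains C57BL/6 and CAST/Ei, and every group shares that background. Neurons were picked by hand from dissociated L4 and L5 ganglia of the intact condition or after sciatic nerve injury. Low-input RNA libraries, 3 in each of 6 groups, came from intact and injured neurons at 1, 8 and 12 months of age. RNA libraries of single neurons came from 18 intact and 21 injured cells at 1 month and from 8 intact and 22 injured cells at 1 year, read from the cytoplasm after the nucleus was removed. The group called 12 months is also given as 1 year old by some labels. The time between injury and collection is not given in the sources used here, and the labels name no animal, so the spread between libraries may be technical.

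Each ribosome joins a small subunit, which reads the mRNA, to a large subunit, which forms the peptide bonds. Cells make the ribosomal proteins in near-equal numbers, and many of their mRNAs begin with a terminal oligopyrimidine (TOP) tract, a C followed by further C and T bases, through which the mTOR pathway controls their translation. After a peripheral nerve is cut, sensory neurons switch on a regeneration program and translate mRNAs locally in the axon, and mRNAs of ribosomal proteins are among those found in axons.

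Start-site sequences are shown for 8 members on which the comparisons turn: 5 that fell after injury (Rps21, Rps27, Rplp2, Rpl38, Rps28) and 3 that did not pass the test in the averaged comparison (Rps6, Rpl15, Rplp0). Of the latter, Rps6 was called lower after injury in the comparison at 12 months. The bases are from RefSeq promoters of GRCm38.p6, 15 before the annotated start and 15 from the start on, and capitals mark a tract of C followed by 4 or more bases that are each C or T.
Rps21, chr2:180257364-180257393, + strand: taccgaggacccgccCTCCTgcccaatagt
Rps27, chr3:90213634-90213663, - strand: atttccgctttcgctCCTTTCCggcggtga
Rplp2, chr7:141447636-141447665, + strand: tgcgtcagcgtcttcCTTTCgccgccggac
Rpl38, chr11:114668565-114668594, + strand: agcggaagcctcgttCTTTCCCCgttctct
Rps28, chr17:33824548-33824577, - strand: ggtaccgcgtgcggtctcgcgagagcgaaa
Rps6, chr4:86857353-86857382, - strand: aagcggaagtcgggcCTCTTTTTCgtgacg
Rpl15, chr14:18270972-18271001, - strand: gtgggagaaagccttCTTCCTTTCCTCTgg
Rplp0, chr5:115559452-115559481, + strand: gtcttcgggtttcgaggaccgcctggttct

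Of the 90 members, 65 were matched to the promoter table by symbol. A tract at the annotated start was found in 14 of these 65 (21.5%), against 813 of 27025 genes in the table (3.01%). When the tract could begin anywhere within 10 bases of the start, 40 of 65 members (61.5%) and 34.4% of all genes held one. Among genes of the mitochondrial ribosome, 0 of 69 held a tract at the start and 31 (44.9%) one within 10 bases. Only the strand with the sequence of the mRNA was searched, and a start that is annotated some bases away from the true one hides a tract from the strict reading.

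The low-input libraries held 7531967 to 19443627 counts on genes, but 29.4% to 93.8% of these lay on 1 unnamed feature, CT010467.1, which left 770328 to 11587094 counts. Levels are given in CPM, counts scaled to the TMM-adjusted library size. The 12-month intact replicate 2 stood apart: 93.8% of its counts lay on the dominant feature, 40.5% of the rest on mitochondrial genes, and 1682 counts on all members together, against up to 130310 in other libraries. Where a count of called members differed without it, both counts are given. Neuronal marker genes (14 genes) summed to between 9523 and 24547 CPM in the intact libraries and 9835 to 16017 CPM in the injured ones. The 24547 CPM belong to intact 12-month replicate 2, and the next highest intact library had 15713 CPM. Markers of nerve injury (13 genes) summed to 102 to 703 CPM in intact and 1413 to 4485 CPM in injured libraries, so that the condition labels and this list go together.

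Levels differed widely among members even per kb of exon. In the 9 intact low-input libraries Rplp1, a P-stalk protein that binds elongation factors, was the highest at 181 ± 60.1 CPM per kb (SD, n = 9). Rpl8 followed at 96.6 ± 18.2 CPM per kb, Rpl41 at 94.3 ± 31.3, Rpl38 at 87.2 ± 35.7 and Rpl19 at 84.9 ± 31.7, all 60S genes, and these 4 did not differ beyond their spread. At the other end, Rpl32l averaged 0.165 CPM per kb, Rpl39l 0.0604 and Rpl3l 0.0185, and Rpl10l had no count in an intact library. Rps12l1 had 0 counts in all 18 libraries, which allows a level of up to 0.0313 CPM of the counts outside the dominant feature. Core genes were low as well in places: Rpl24 averaged 1.39 CPM per kb, Rpl13a 3.74 and Rps12 4.84. Reads with more than 1 matching place were not counted, so members with close copies in the genome are underestimated to an unknown degree. The length used per kb covers all annotated exons of a gene, such as 499 bp for Rplp1 and 6270 bp for Rps15a. Levels between members, and their order per kb, are uncertain for both reasons.

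**Figure D1:**
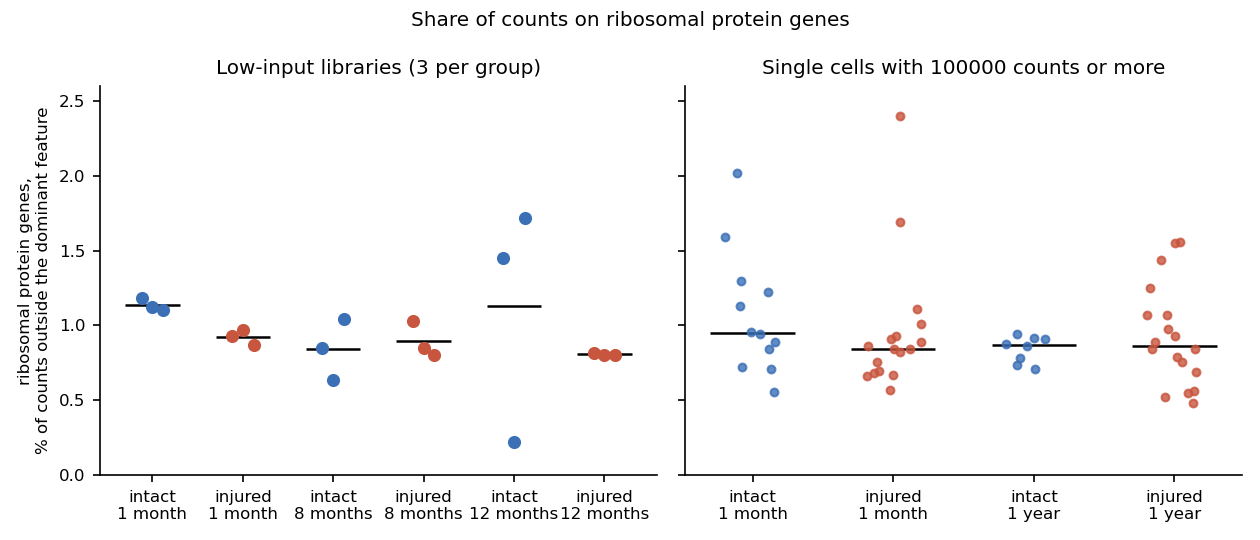
Share of counts on the 90 ribosomal protein genes, in % of the counts outside the dominant feature. The left panel shows 3 low-input libraries per group with their mean, and the right panel single cells with 100000 counts or more with the group median. The 3 injured libraries at 12 months lie between 0.802 and 0.818%, while the 3 intact ones spread from 0.218 to 1.72%.

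In sum, the members held about 1% of the counts outside the dominant feature. At 1 month the share was 1.18, 1.12 and 1.10% in the 3 intact libraries and 0.931, 0.970 and 0.871% in the 3 injured ones, and the groups did not overlap. At 8 months it was 0.851, 0.635 and 1.04% in intact and 1.03, 0.85 and 0.801% in injured libraries, which overlapped. At 12 months the intact libraries gave 1.45, 0.218 and 1.72% and the injured ones 0.818, 0.805 and 0.802%. The low intact value is that of replicate 2, and without it the intact mean at 12 months moved from 1.13 to 1.59%. Overlap, and the direction at 12 months, depended on the denominator. Over all gene counts, dominant feature included, the 8-month libraries had 0.292, 0.202 and 0.341% in intact and 0.416, 0.465 and 0.467% in injured neurons, without overlap. At 1 month the means were 0.641% in intact and 0.581% in injured libraries, and at 12 months 0.288 and 0.534%, with overlap at both ages. No test was made on the share, which is a score over the members.

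Averaged over the 3 ages, 12 of the 84 members fell and 0 rose, at an edgeR quasi-likelihood adjusted p below 0.05. Of all 14212 genes tested, 152 (1.07%) fell and 726 (5.11%) rose. The members' median log2 change was -0.33 against 0.03 for all genes, and 82 of the 84 lay below 0 against 47.3% of all genes. The 12 called members changed by -0.49 to -0.75 on the log2 scale. Without the filter on low counts, 2 members fell. In 0 members were all injured libraries below all intact ones within every age, as in 0.12% of all genes.

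Among the 12 were 6 genes of the 40S subunit, 4 of the 60S subunit and 2 of the P stalk. Rps21, a 40S protein whose gene lies on chromosome 2 from 180257377 to 180258445 (GRCm38), had 20.8, 13.7 and 17 CPM in the intact and 14.2, 10.1 and 9.63 CPM in the injured libraries at 1 month. At 8 months it had 13.3, 6.92 and 13.1 CPM against 13.2, 10.8 and 8.06 CPM, and at 12 months 30.7, 25.3 and 30.6 CPM against 11.7, 8.73 and 8.82 CPM. In CPM the groups overlapped at 1 and 8 months and were apart at 12 months. At 12 months intact replicate 2 had 14 Rps21 counts of 770328 outside the dominant feature, against 186 of 6289019 in injured replicate 1. As a share of those counts the groups overlapped there. The averaged log2 change of Rps21 was -0.75 ± 0.18 (SE, edgeR adjusted p = 0.0214), the largest fall of the 12.

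Rplp1 forms the flexible stalk of the large subunit with Rplp2 and Rplp0, and its gene lies on chromosome 9 from 61913284 to 61914542. Its level was 67.8 to 78.1 CPM in intact and 56.3 to 59.3 CPM in injured libraries at 1 month, which did not overlap. At 8 months, 59.5, 132 and 66.8 CPM in intact libraries overlapped with 78.4, 59.4 and 50.7 CPM in injured ones. At 12 months the intact values of 117, 83.1 and 138 CPM were all above the injured ones of 43, 44.7 and 40.2 CPM. The 83.1 CPM rest on 46 counts in intact replicate 2, and as a share of counts outside the dominant feature the groups overlapped. Rplp1 fell by 0.73 ± 0.17 on the log2 scale (edgeR adjusted p = 0.0157), and Rplp2 by 0.64 ± 0.16 (adjusted p = 0.0219). Rplp0, the base of the same stalk, went from a median of 127 CPM in intact to 118 CPM in injured libraries, and its log2 change of 0.20 ± 0.18 did not pass (adjusted p = 0.583).

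Rps27, a zinc-finger protein of the 40S subunit, ranged from 13.7 to 30.6 CPM in the 9 intact libraries (median 20.9) and from 9.49 to 18.9 CPM in the 9 injured ones (median 12.8). Its log2 change was -0.69 ± 0.17 (edgeR adjusted p = 0.0235). Rps28, another small 40S protein, had medians of 13 and 7.05 CPM and a change of -0.66 ± 0.18 (adjusted p = 0.0373). Of the other 40S genes called, Rps29 changed by -0.60, Rps14 by -0.58 and Rps15 by -0.49. The 60S genes called were Rpl30 (-0.65), Rpl37a (-0.62), Rpl36 (-0.58) and Rpl38 (-0.58, a protein known for its part in the translation of Hox mRNAs).

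The 12 called members had a median exon length of 926 bp, against 1835 bp for the other 72 tested. Not all of the 12 were short: their lengths ran from 404 bp (Rpl36) to 3020 bp (Rpl30). This length covers all annotated exons of a gene, not those of 1 mRNA. Over the 84 members the log2 change and the exon length had a Spearman rho of 0.22, and the change and the mean level one of 0.32. These are descriptions across genes of the same libraries, and genes are not independent replicates. By TOP tract, the median change was -0.34 in 13 tested members with a tract at the start, -0.33 in 23 with one nearby and -0.34 in 25 with none. Of the 7 called members in the promoter table, 4 held a tract at the start (Rps21, Rps27, Rplp2 and Rpl38, shown above) and 3 did not (Rps28, Rpl37a and Rps15), while 9 of the other 54 tested members did (16.7%). With a tract anywhere within 10 bases of the start counted, the shares were alike, at 4 of 7 (57.1%) and 32 of 54 (59.3%). No test was made on these counts. Rpl15, with the longest tract shown, was 1 of the 2 members above 0, at 0.20 ± 0.32 (edgeR adjusted p = 0.788). That value includes intact 12-month replicate 2, where Rpl15 had 1 count (1.81 CPM). Intact replicates 1 and 3 of that age had 73.6 and 92.1 CPM, and the injured libraries 66.6, 74.4 and 71.9 CPM.

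The number of called members rested on single libraries. Each of the 12 stayed below 0 in all 18 fits that left 1 library out. They were chosen as lower in these same libraries, so this is no separate support for the direction. Without the intact 12-month replicate 2, 34 members fell and the median was -0.42; of all genes, 420 fell and 1042 rose in that fit. The count dropped to 6 without intact replicate 1 at 12 months, to 4 without intact replicate 3 or injured replicate 1 at 1 month or without injured replicate 1 at 12 months or injured replicate 2 at 8 months, and to 3 without injured replicate 2 at 1 month. It was 2 without intact replicate 1 at 1 month or injured replicate 3 at 12 months, and 1 without injured replicate 3 at 1 month, injured replicate 2 at 12 months or injured replicate 3 at 8 months. Rplp1 was called in all 18 of these fits, Rplp2 in 13 and Rps21 in 12.

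The direction is relative to the other genes of a library. Scaled to the added ERCC spike-in RNA instead, 83 of the 84 members were called higher after injury (median log2 change 2.51), as were 13492 of the 14212 genes (median 2.90). Spike-ins made up 12.7 ± 8.85% of the counts in the 9 intact and 3.2 ± 3.29% in the 9 injured libraries (SD). Relative to the shift of all genes, the members' median was again the lower one. The dominant feature held 63.4 ± 17.6% of the gene counts in intact and 40 ± 8.75% in injured libraries, and with its ratio as a covariate 1 member was called, with a median of -0.76. Its part in the result was not tested further.

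**Figure D2:**
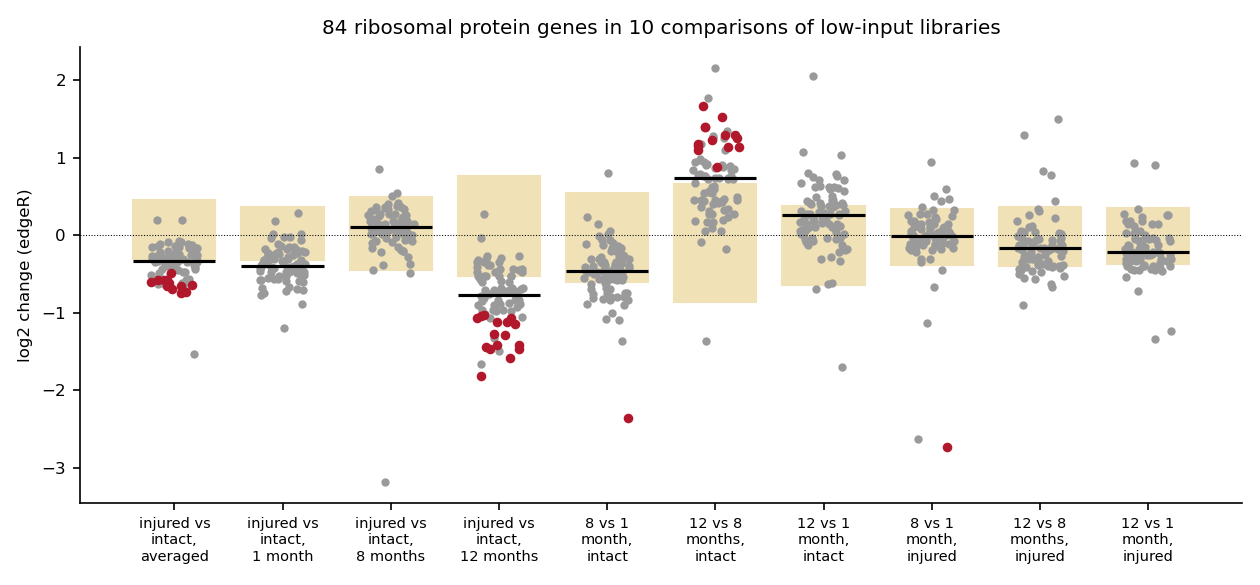
Log2 change (edgeR) of the 84 tested members in 10 comparisons of low-input libraries. Each point is a gene, red where the adjusted p is below 0.05, the bar is the members' median, and the shaded box spans the middle 50% of all 14212 genes. After injury the members' median lies at -0.39 at 1 month, 0.11 at 8 months and -0.76 at 12 months.

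At 1 month 80 of 84 members lay below 0, with a median log2 change of -0.39 against -0.01 for all genes. In 45 of the 84 all 3 injured libraries were below all 3 intact ones, which held for 7.28% of all genes. Yet edgeR called 0 members at this age, with 4 at an unadjusted p below 0.05, and DESeq2 and limma-voom called 0 as well. Over all genes 33 were called (0.232%). The smallest p-values of members that were lower were those of Rpl37 (-0.72 ± 0.29, adjusted p = 0.891) and Rps29 (-0.71 ± 0.30, adjusted p = 0.939), and of those that were higher, Rpl13 (0.29 ± 0.24) and Rps2 (0.19 ± 0.27), both with an adjusted p of 1.

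At 8 months the median of the members was 0.11 against 0.01 for all genes, and 23 of 84 lay below 0. edgeR called 0 members (2 at an unadjusted p below 0.05; DESeq2 and limma-voom 0), with 136 of all genes called (0.957%). Rplp0 had 63.5, 51.8 and 75.9 CPM in the intact and 96.7, 131 and 118 CPM in the injured libraries, which did not overlap, and a log2 change of 0.86 ± 0.32 (adjusted p = 0.251). Rpl12, whose protein sits beside the stalk, was next at 0.54 ± 0.34 (adjusted p = 0.595). On the lower side the smallest p-values were those of Rps4l (-3.18 ± 1.33, adjusted p = 0.33) and Rplp1 (-0.45 ± 0.29, adjusted p = 0.61). Without the intact 12-month replicate 2, 1 member was called as higher at this age.

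At 12 months 16 of 84 members fell and 0 rose, while 114 (0.802%) of all genes fell and 311 (2.19%) rose. The members' median was -0.76 against 0.08 for all genes, and 83 of 84 lay below 0. In 27 the groups did not overlap in CPM, which held for 6.68% of all genes. Those CPM depend on the scaling of intact replicate 2, which held 1682 counts on all members. Rpsa, a 40S protein that also serves as a laminin receptor, had 75.2, 341 and 86.9 CPM in the intact and 41.6, 51.3 and 47.8 CPM in the injured libraries. Its log2 change of -1.81 ± 0.42 (edgeR adjusted p = 0.0307) includes the 341 CPM of intact replicate 2 and was -0.78 without that library. Rps21 (-1.58 ± 0.33), Rps27 (-1.47 ± 0.31), Rps28 (-1.47 ± 0.32) and Rpl36 (-1.44 ± 0.28) followed, with adjusted p from 0.0137 to 0.0226.

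The 12-month count moved with the libraries of that age. It was 51 without intact replicate 2, with a median of -1.05, 8 without intact replicate 1 and 10 without intact replicate 3. It was 0 without injured replicate 1 or 2 and 1 without injured replicate 3. Leaving out libraries of other ages gave 10 without injured replicate 2 at 8 months or injured replicate 1 or 2 at 1 month, and 9 without injured replicate 3 at 1 month. Rps14 stayed called in 16 of the 18 fits and Rps21 in 15. With only the 6 libraries of this age in the fit, 0 members were called, 27 had an unadjusted p below 0.05 and the median was -0.80. Scaled to spike-ins, 84 of 84 members were called higher at 12 months, with a median of 4.29 against 5.36 for all genes. Without the filter on low counts 5 fell, and with the dominant feature as a covariate 1 fell and Rpsa stood at 0.64.

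The change of the injury difference with age was tested directly and did not pass. In the joint test of injury by age, 0 members and 0% of all genes were called (20 members and 1161 genes at an unadjusted p below 0.05; DESeq2 called 7 members and limma-voom 0). Rps14 (edgeR adjusted p = 0.320) and Rps6 (0.345), a 40S protein phosphorylated downstream of mTOR, had the smallest p-values. Between 12 and 8 months the injury difference was more negative by a median of 0.88 log2 units, with 83 of 84 members below 0 and 32 at an unadjusted p below 0.05, but again 0 were called, as for 0% of all genes.

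**Figure D3:**
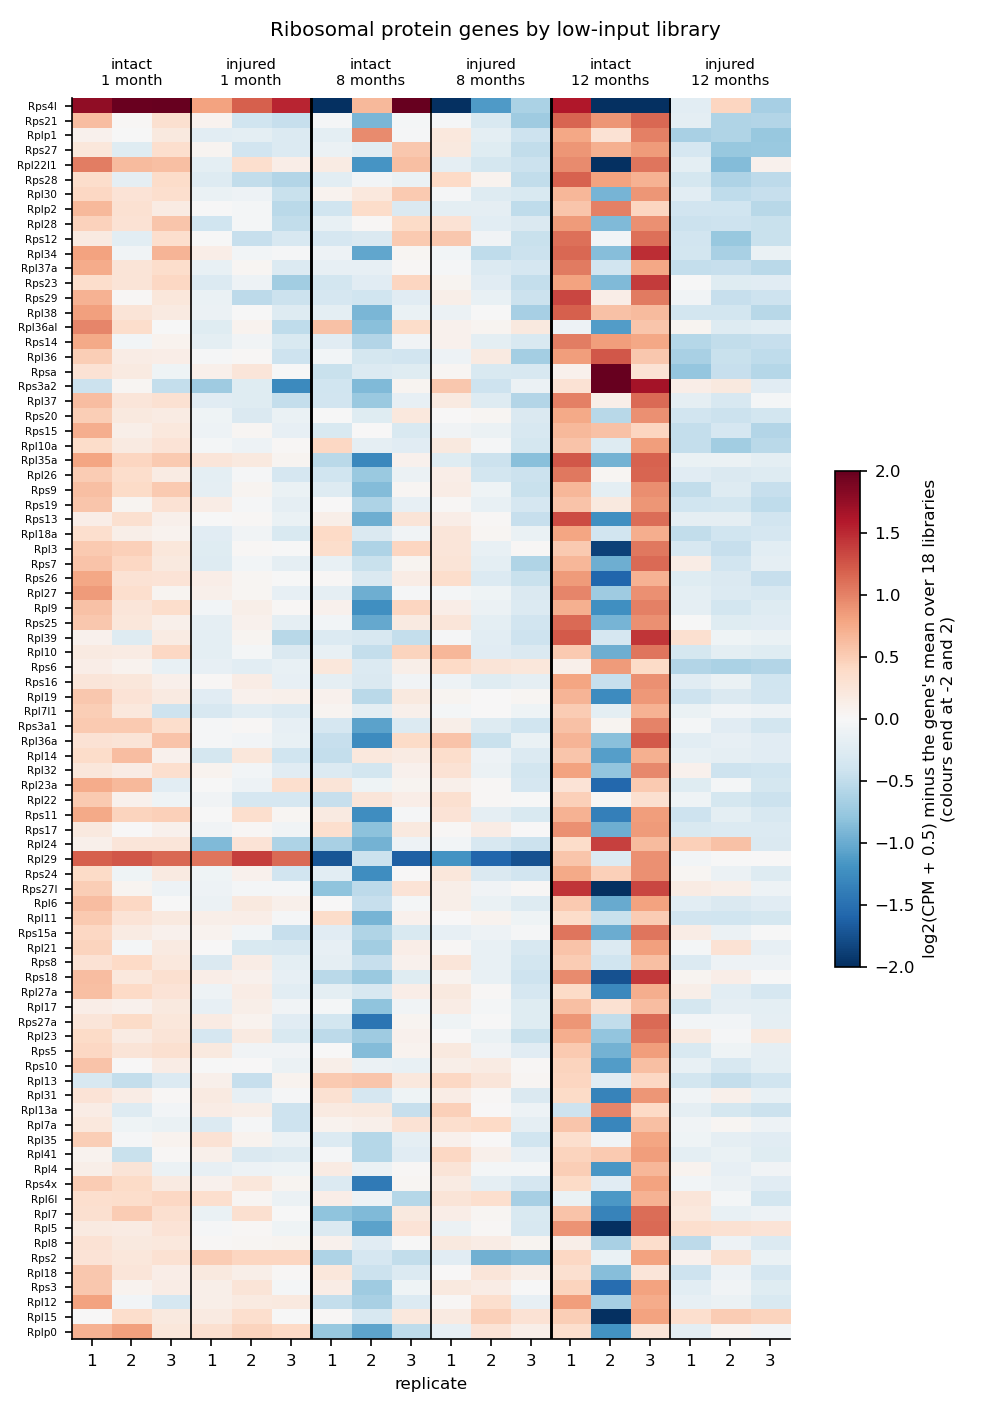
Level of each of the 84 tested members (rows, ordered by the averaged log2 change after injury) in each of the 18 low-input libraries (columns, by group and replicate), as log2(CPM + 0.5) minus the gene's own mean. Intact replicates 1 and 3 at 12 months are high for most members, the injured libraries at 12 months are low, and intact replicate 2 at 12 months is high for some members and low for others.

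Across the 18 libraries, the log2 level of a member and the median of the other members had a Pearson r of 0.80 at the median, and r was above 0.5 in 72 of 84 (85.7%). For all genes tested, r with the median of the members was -0.02 at the median and above 0.5 in 11.6%. Without intact 12-month replicate 2, an alternative chosen after seeing the data, the median r of the members was 0.85. Rpl27 (r = 0.96), Rps20 (0.95), and Rpl34, Rps16 and Rps25 (0.94 each) followed the group most closely. The lowest values were those of Rpl13a (r = -0.11), Rpsa (0.00), Rps3a2 (0.16), Rpl13 (0.18), Rps6 (0.20) and Rpl24 (0.24). By rank (Spearman rho) Rpsa stood at 0.47 and the others just named between -0.04 and 0.27. Rpsa (341 CPM), Rps3a2 (12.6 CPM on 7 counts) and Rpl24 (3.61 CPM on 2 counts) were highest in intact 12-month replicate 2. Libraries share their depth and scaling across genes, so the correlation describes these libraries only.

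Among intact neurons of different ages, 1 gene stood out from the rest. Rpl29, a small 60S protein on chromosome 9 from 106429454 to 106431568, had 91.6, 93.9 and 88 CPM in intact libraries at 1 month, 11.8, 29.1 and 12.4 CPM at 8 months and 58.5, 32.5 and 74.7 CPM at 12 months. In injured libraries it had 83.4, 104 and 87.7 CPM at 1 month, 17, 12.8 and 11.5 CPM at 8 months and 38.1, 39.5 and 39.6 CPM at 12 months. In CPM, all 6 libraries at 8 months were below all others. The 32.5 CPM rest on 18 counts in intact 12-month replicate 2. As a share of counts outside the dominant feature, that library overlapped with those at 8 months. From 1 to 8 months it fell by 2.36 ± 0.35 on the log2 scale in intact (edgeR adjusted p = 0.00273) and by 2.73 ± 0.36 in injured neurons (adjusted p = 0.00101), and the call held in every one of the 18 fits that left 1 library out. It was lost in both conditions under scaling to spike-ins, where the changes were -3.92 and -4.26, and in intact neurons with only the libraries compared (-2.35).

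Rpl29 was the only member called in those comparisons by edgeR, where 0.922% of all genes were called in intact and 0.225% in injured neurons. Without the intact 12-month replicate 2 the counts were 5 and 2. In intact neurons 79 of 84 members were below 0 at 8 against 1 month, with a median of -0.46 against -0.01 for all genes, and in 38 the groups did not overlap, as in 12.8% of all genes. In injured neurons the median was -0.00 and 43 of 84 were below 0. Rpl13 went the other way: its 3 intact libraries had 49.1, 43.9 and 50.9 CPM at 1 month and 88.8, 90.8 and 71.4 CPM at 8 months, with no overlap.

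From 8 to 12 months 14 members rose and 0 fell in intact neurons, while 2.77% of all genes rose and 3.92% fell. The median of the members was 0.74 against -0.02, and 81 of 84 were above 0. In 22 the groups did not overlap in CPM, against 5.22% of all genes. The CPM of intact 12-month replicate 2, with 1682 counts on all members, enter this count. Rpl29 rose by 1.67 ± 0.35 (edgeR adjusted p = 0.0129), Rpsa by 1.52 ± 0.42 (0.0384; 0.50 and not called without intact 12-month replicate 2), Rpl39 and Rps21 by 1.39 each (0.0255 and 0.0214), and Rps29 by 1.29 ± 0.30 (0.0213). Scaled to spike-ins, 0 members were called and the median was -1.14, where that of all genes was -2.17. The count was 53 without intact 12-month replicate 2, 9 and 7 without replicates 1 and 3 of that group and 1 without intact 8-month replicate 2, and 0 with only these 6 libraries in the fit, where 0 of all genes were called. Injured libraries at 12 months were compared with these same intact ones, so this rise and the fall after injury at 12 months share 3 libraries.

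In the other age comparisons edgeR called 0 members. For 12 against 1 month in intact neurons, 11 members reached an unadjusted p below 0.05. Of all genes 0.246% were called, and DESeq2 called 4 members and limma-voom 0. Rps3a2 (2.05 ± 0.66, adjusted p = 0.251) and Rpl39 (1.03 ± 0.34, 0.256) were highest by p, and Rpl29 (-0.69 ± 0.34, 0.480) and Rplp0 (-0.63 ± 0.32, 0.499) lowest. Without intact 12-month replicate 2, 1 member was called as higher. In injured neurons, 1 member at 12 against 1 month and 4 at 12 against 8 months reached an unadjusted p below 0.05. Of all genes 0.113% and 0.0633% were called, and DESeq2 called 1 and 2 members and limma-voom 0. Rpl29 led both, at -1.23 ± 0.34 against 1 month (adjusted p = 0.505) and 1.5 ± 0.34 against 8 months (0.275). The next by p against 1 month were Rpl10a (-0.54) on the lower side and Rps3a2 (0.93) and Rpl24 (0.91) on the higher, and against 8 months Rps2 (0.78 ± 0.27) on the higher side and Rps6 (-0.90 ± 0.24) and Rpl13 (-0.67) on the lower, with adjusted p of 0.441 for Rps6 and 1 for the others.

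**Figure D4:**
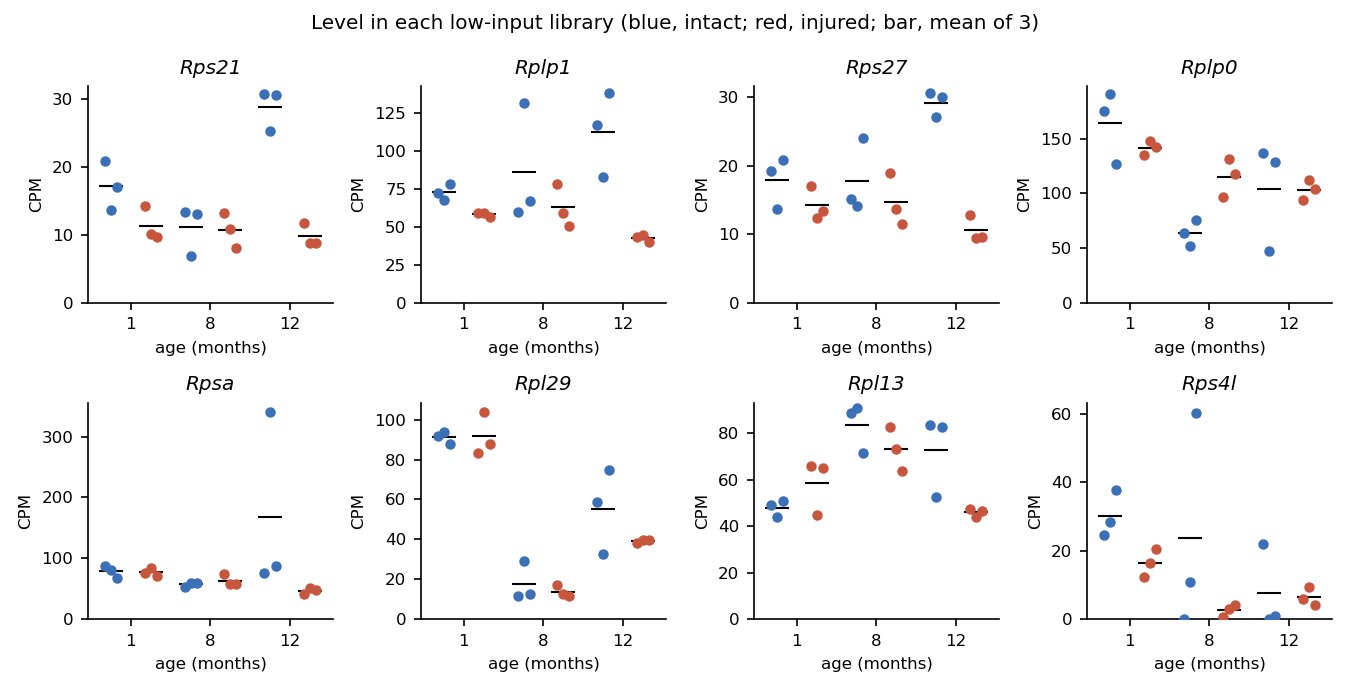
Level in CPM of 8 members in each of the 18 low-input libraries by age in months, with intact libraries in blue, injured ones in red and bars at the mean of 3. In CPM, Rps21, Rplp1 and Rps27 are apart between conditions at 12 months, where intact replicate 2 rests on 14, 46 and 15 counts. The 341 CPM of Rpsa belong to 1 intact library, and Rpl29 is at 11.5 to 29.1 CPM in all 6 libraries at 8 months.

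Some ribosomal proteins have a paralog that can take their place in the ribosome. Rps4l, a copy of the X-linked Rps4x, was the most variable member. It had 24.5, 28.5 and 37.9 CPM in intact and 12.3, 16.3 and 20.5 CPM in injured libraries at 1 month, which did not overlap. At 8 months the intact libraries gave 0, 11 and 60.4 CPM and at 12 months 21.9, 0 and 0.869 CPM, so that libraries of 1 group ranged from none to the highest value. Its averaged log2 change of -1.53 ± 0.72 did not pass (edgeR adjusted p = 0.250), and Rps4x changed by -0.14 ± 0.19.

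Rpl22l1, the paralog of Rpl22, ranged from 1.81 to 21.9 CPM in intact (median 15.7) and from 5.33 to 12.9 CPM in injured libraries (median 8.83), with a change of -0.67 ± 0.30 (edgeR adjusted p = 0.211). Rpl22 itself changed by -0.31 ± 0.15 (0.269). Rps27l, a p53 target, had medians of 19.5 and 18.5 CPM and a change of -0.28 ± 0.28 (0.631), while its parent Rps27 fell. Rpl7l1 changed by -0.33 ± 0.16 and Rpl36al, at under 2 CPM in every library, by -0.58 ± 0.51, against -0.14 for Rpl7 and -0.33 for Rpl36a. Rpl3, Rpl10 and Rpl39, parents of Rpl3l, Rpl10l and Rpl39l, which were too low to test, had log2 changes of -0.42, -0.34 and -0.35, none called. Of the 5 tested paralogs named here and the 8 parents, 1 (Rps27) fell, beside 1.07% of all genes. Without intact 12-month replicate 2, Rpl22l1 was called as well, at -0.79. The other tested copies, Rpl6l (-0.14) and Rps3a2 (-0.57), did not pass.

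For single cells, the counts of all cells in a group were summed, so cells with more counts weigh more in the shares and member ratios below. Intact cells at 1 month had a median of 291824 and a maximum of 7364408 counts outside the dominant feature. At 1 year 1 injured cell held 22890735 of the 92043694 such counts of its group. No cell is tied to an animal, so each group is 1 sample, no test was made, and the 95% intervals cover counting error only. Pooled, the members held 0.996% of the counts outside the dominant feature in intact (Clopper-Pearson interval 0.993 to 0.999%) and 0.875% in injured cells at 1 month (0.873 to 0.878%). At 1 year they held 0.837% in intact (0.835 to 0.839%) and 0.878% in injured cells (0.876 to 0.880%). Cells differed far more than these intervals: among cells with 100000 counts or more, the share ran from 0.555 to 2.02% in 12 intact and from 0.566 to 2.40% in 17 injured cells at 1 month. It ran from 0.707 to 0.940% in 8 intact and from 0.483 to 1.56% in 18 injured cells at 1 year. These ranges include poor libraries. The 0.555% came from a cell with 561 genes detected and 42.5% mitochondrial counts. The 2.40% came from a cell with 89.7% of its gene counts on the dominant feature. At 1 month the cells above the cut had at least 14 (intact) and 15 (injured) members detected, with medians of 84.5 and 85. A further 6, 4, 0 and 4 cells of these groups were under 100000 counts, and 1 of them had none.

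Member by member, 62 of 79 were lower in injured cells at 1 month, with a median log2 ratio of -0.19 (pseudocount 1 CPM, genes with a mean of 10 CPM or more) against -0.06 for 8840 genes. All 12 members that fell in the averaged low-input comparison were at or below the intact level here. Rplp1 had 173 CPM in intact (Poisson interval 168 to 177) and 125 CPM in injured cells (122 to 128), while Rps21 had 37.6 and 37.5 CPM. Past 2-fold, 1 member was lower (Rps4l, 90.4 against 22.5 CPM) and 0 were higher, where 8.88% of all genes were lower and 5.06% higher. Rpl22l1 was next, with 49.1 CPM in intact and 27.1 CPM in injured cells.

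At 1 year 29 of 80 members were lower in injured cells, and the median was 0.07 against -0.01 for 9255 genes. Past 2-fold 0 members were lower and 0 higher, against 4.32% and 5.1% of all genes. Of the 12 members that fell in low-input libraries, 5 were lower and 7 higher, among them Rps21 (30.3 CPM in intact, 34.9 CPM in injured cells). Rps27l was higher in injured cells at both ages, with a log2 ratio of 0.42 each time, as was Rpl7l1 (0.79 and 0.67). Rpl29 had 103, 108, 112 and 100 CPM in intact and injured cells at 1 month and at 1 year. Rpl10l, a copy of Rpl10 known from the testis, had 1152 counts in 2 of the 22 injured cells at 1 year and 0 in the other groups, against 1 count in the low-input libraries.

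**Figure D5:**
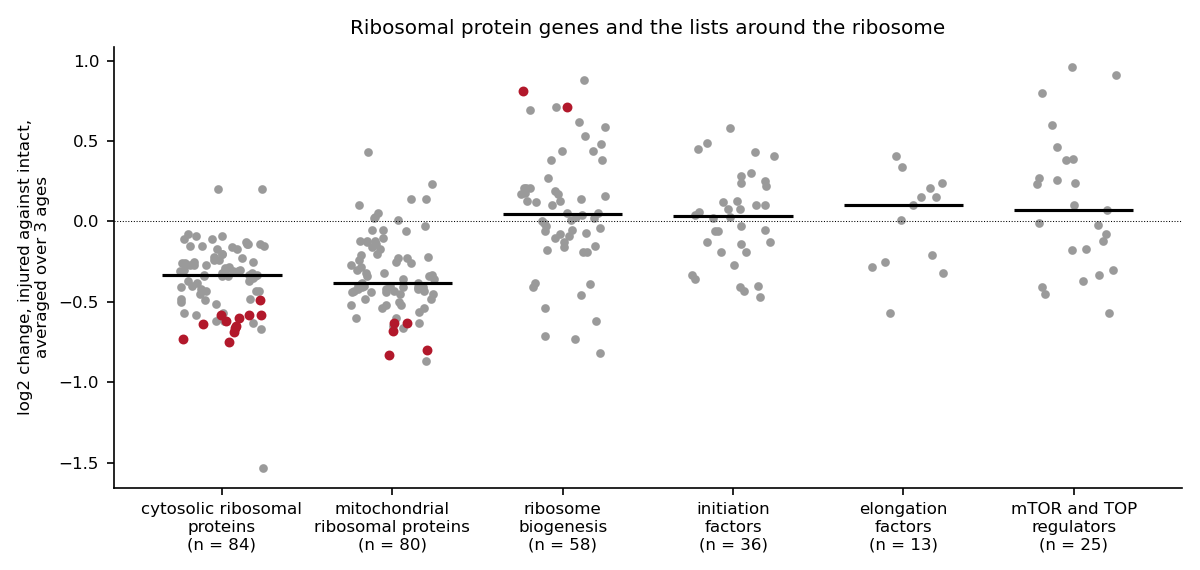
Averaged log2 change after injury of the tested members and of 5 other gene lists, with genes called in red and bars at the median. Cytosolic and mitochondrial ribosomal proteins have medians of -0.33 and -0.38, and the medians of the other 4 lists lie between 0.04 and 0.10.

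Genes that build or use the ribosome had medians near that of all genes. Of the 58 tested ribosome biogenesis genes (59 of 60 listed were in the table), 2 rose after injury in the averaged comparison and 0 fell, where 5.11% of all genes rose and 1.07% fell, and the median was 0.05. The 2 were Rrp12 (0.81 ± 0.22, edgeR adjusted p = 0.0339), which helps to export and mature ribosomal subunits, and Gnl2 (0.71 ± 0.18, 0.0293), a GTPase of the nucleolus needed for the large subunit. Of 36 translation initiation factors, 13 elongation factors and 25 mTOR and TOP mRNA regulators, 0 were called (5, 2 and 3 at an unadjusted p below 0.05), and the medians were 0.04, 0.10 and 0.07. Of 11 chaperones of ribosomal proteins and genes linking them to p53, Cdkn1a, the p53 target that encodes a cell-cycle inhibitor, rose by 3.84 ± 0.74 (0.00565) and was the only one called.

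The 80 tested genes of the mitochondrial ribosome, a separate ribosome with its own proteins, were also mostly lower. Their median was -0.38, 71 of 80 were below 0, and 5 fell and 0 rose, beside 1.07% and 5.11% of all genes. Mrpl52 (-0.83 ± 0.19, edgeR adjusted p = 0.0135) and Mrpl54 (-0.80 ± 0.17, 0.00863) fell the most, followed by Mrps11 (-0.68), Mrpl21 and Mrpl34 (-0.63 each). Their medians at 1, 8 and 12 months were -0.41, -0.05 and -0.63. Fau, a gene outside the name rule that encodes a 40S protein, was not called in the averaged comparison, at -0.43 (edgeR adjusted p = 0.0534), and fell at 12 months by 1.08 (0.0178). Over the 8 genes called in these lists, the count ran from 3 to 32 when single libraries were left out, with 32 without the intact 12-month replicate 2, of which 27 fell.

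Summed markers of other cells overlapped between conditions in each of 4 lists. Satellite glia markers (11 genes) summed to 47.6 to 807 CPM (median 187) in intact and 121 to 2121 CPM (median 734) in injured libraries, and of the 10 tested, all above 0, 1 (Fbln2) rose, where 5.11% of all genes did. Schwann cell markers (12 genes) had medians of 767 and 1101 CPM, with 0 of 10 called and Mag at 0 in all injured libraries. Immune markers (15 genes) summed to 0 to 32.5 CPM in intact and 2.84 to 18.7 CPM in injured libraries, with C1qa, C1qc, Cd14 and Cx3cr1 at 0 in all intact ones, and 1 of 4 tested (Cd14) rose. Markers of fibroblasts, endothelium and red cells (11 genes) summed to 2.82 to 90.3 and 20.1 to 64.4 CPM, and 1 of 6 tested (Col1a2) rose. Fewer cells of a type and less RNA per cell cannot be told apart in such libraries, and the part of other cells in the members' levels was not tested.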

How the data were processed

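RNA was measured as SMART-seq2 libraries, per the labels' protocols. The authors deposited raw counts of read pairs per gene, made with featureCounts 1.5.2 in paired mode on exons grouped by gene name, unstranded and without multi-mapping reads, over a GENCODE annotation with ERCC spike-ins, per the file headers. The submitters' processing notes also name STAR, Trim Galore and the build mm10, without roles. A deposited column of exon lengths (unit: other) gave levels per kb. The 136 RNA samples carry 87 library names, and the table has 1 column for each name, so 49 samples share a column with another and a name counts as 1 library. The 94 methylation samples were not analysed here. Tests used edgeR 4.0.16 (R 4.3.3) over the 18 low-input libraries: filterByExpr, TMM, robust quasi-likelihood, 6 group means, 14212 genes, 12 residual degrees of freedom, common biological coefficient of variation 0.543, Benjamini-Hochberg over all genes, two-sided. On simulated counts (13634 genes), the averaged contrast recovered 29.6% of genes changed by 1 and 72.4% changed by 2 on the log2 scale, and the 1-month contrast 0% and 25.5%. DESeq2 1.42.0, limma 3.58.1 and other scalings were alternatives. Members, lists and tests were chosen with earlier results of these data known. Named genes were the called members with the largest changes (up to 10 a direction for averaged injury, otherwise 5), or the 2 smallest p-values a direction where none was called, the paralogs with their parents, the P stalk, Rpsa, the 5 highest and lowest levels, Fau and up to 4 called genes a direction of each list; Rpl38, Rps15, Rpl13, Rpl7l1 and members named for covariation, low level or single-cell values were added after their values were seen. A further gene of this rule is not reported here.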

Additional observations from a re-analysis of the deposited data

How the results depend on the processing

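Under RLE size factors the members called kept within 1.5 times of the reported number, except that 2 in place of 1 were called at 8 against 1 month in intact neurons. DESeq2 called more: 23 members for averaged injury, 32 at 12 months, 37 for 12 against 8 months in intact neurons, 4 for 8 against 1 and 4 for 12 against 1 month there, 2 for 8 against 1, 1 for 12 against 1 and 2 for 12 against 8 months in injured neurons, 7 in the joint interaction and 24 in the lists. limma-voom called 24 for 12 against 8 and 3 for 8 against 1 month in intact and 2 for 8 against 1 month in injured neurons, and 15 in the lists. Without the filter on low counts, the numbers were 2, 1 at 8 months, 5 at 12 months, 7 for 12 against 8, 2 for 8 against 1 and 1 for 12 against 1 month in intact neurons, 2 for 8 against 1 month in injured neurons, 1 in the interaction and 3 in the lists. With only the libraries compared, fewer samples gave 0 at 12 months, 0 for 12 against 8 and 0 for 8 against 1 month in intact neurons, and 3 for 12 against 1 month in injured neurons.

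Scaling to spike-ins called 83 members for averaged injury, 84 at 12 months and 225 list genes, all higher, 83 for 12 against 1 month in intact neurons, all lower, and 0 for 12 against 8 and for 8 against 1 month in intact and 8 against 1 month in injured neurons. It reversed these averaged changes: Rps21 2.23, Rplp1 1.90, Rps27 2.19, Rps28 2.12, Rpl30 2.13, Rplp2 2.16, Rpl37a 2.15, Rps29 2.21, Rps14 2.35, Rpl36 2.34, Rpl38 2.32, Rps15 2.33, Rpl7l1 2.55, Rpl22l1 2.36, Rpl36al 2.68, Rps4l 1.2, Rps27l 2.49, Rpl3 2.47, Rpl7 2.65, Rpl10 2.42, Rpl22 2.46, Rpl36a 2.56, Rpl39 2.40, Rps4x 2.81 and Rpsa 2.54. At 12 months it gave Rpsa 4.38, Rps21 3.65, Rps28 3.70, Rps27 3.78 and Rpl36 3.95, and for 12 against 8 months in intact neurons Rpl29 -0.92, Rpsa -1.64, Rps21 -0.37, Rpl39 -0.61 and Rps29 -0.61. The dominant feature's ratio as a covariate called 1 member for averaged injury, 1 at 12 months and 26 for 12 against 8 months in intact neurons, and reversed Rpl15 (-1.11), Rplp0 (-0.49) and Rpsa (0.57) averaged and Rpsa at 12 months (0.64). Rpl7 averaged ran from -0.27 to 0.03 with 1 library left out, above 0 without intact 12-month replicate 3 (0.03) and intact 8-month replicate 3 (0.01). Leaving that feature out of the library sizes, chosen after seeing the data, called 8 members for averaged injury, 12 at 12 months and 12 for 12 against 8 months in intact neurons. The causes were not tested.

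With a replicate block 0 members were called for averaged injury and 0 at 12 months, and 1 list gene. Same-numbered libraries had correlated deviations of 0.0862, 0.314 and 0.171 (1 month), -0.432, -0.216 and -0.0482 (8 months), and -0.136, -0.0466 and 0.0879 (12 months; 3528 genes), and 7 of 18 libraries matched their own number best, so the numbers were not taken to pair them.

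Leaving out 1 library at a time, the counts ran from 1 to 34 for averaged injury, 0 to 0 at 1 month, 0 to 1 at 8 months and 0 to 51 at 12 months. In intact neurons they ran from 1 to 5 for 8 against 1, 0 to 1 for 12 against 1 and 1 to 53 for 12 against 8 months, in injured neurons from 1 to 2, 0 to 0 and 0 to 0, in the interaction from 0 to 0 and in the lists from 3 to 32. Mean low-input shares ran from 1.11 to 1.15, 0.743 to 0.943 and 0.834 to 1.59% in intact neurons of rising age, and from 0.901 to 0.95, 0.826 to 0.942 and 0.803 to 0.812% in injured ones. Over all gene counts they were 0.641, 0.278 and 0.288% in intact and 0.581, 0.449 and 0.534% in injured libraries, and 0.83% in injured libraries at 12 months without mitochondrial genes. In single cells they were 0.577 and 0.514% at 1 month and 0.428 and 0.429% at 1 year in intact and injured cells over all gene counts, and 1.1, 0.953, 0.84 and 0.996% as means of cells. Depth limits the intact 12-month replicate 2 most.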

Other observations

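Rows whose names mark them as ribosomal protein pseudogenes (-ps) were left out of the members. There were 288 such rows in the count table, and in the low-input libraries they held 3.11 to 4.46% as many counts as the members.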
